A study of Mus musculus with 6 samples.

Results

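Rrad and 9 genes of excitation-contraction coupling (Gem, Cacna1s, Cacnb1, Cacng1, Ryr1, Casq1, Hrc, Jph1 and Jph2) were followed in the muscle of mice with and without the transcription factor TFEB. They were taken by gene symbol, so that 12 probe sets of these 10 genes were read out of 22626 probe sets for 12393 genes, and every one of the 10 had a probe set of its own. The list was drawn up with the rise of Rrad in these arrays already known, and it was thus chosen by values measured in this same contrast. The differences between the groups, and which of these genes passed the threshold used for all genes, are therefore given as a description and support nothing.

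Total RNA of muscle was hybridized as biotin-labeled cRNA on Affymetrix arrays, 1 array for each of 3 WT mice (WT 1 to WT 3) and 3 TFEB KO mice (KO 1 to KO 3), all C57BL/6 and aged 1 month. The KO mice carried floxed Tcfeb, the gene of TFEB, and a Cre transgene under the promoter of MLC1f, a myosin light chain of fast fibers, so that recombination was directed to muscle fibers and the other cells of the tissue were not targeted. The mice of a group are biological replicates, and the labels do not name the muscle. The probe set of the targeted gene, Tfeb, read 8.61, 8.55 and 8.96 in WT and 7.10, 7.23 and 7.04 in KO on the log2 scale of the deposited values, a difference of -1.58 ± 0.13 (SE, n = 3 per group, adjusted p = 0.00787 by limma). Whether its probes lie inside the deleted part is not known here.

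In skeletal muscle an action potential runs into the T-tubules, where the L-type calcium channel acts as the voltage sensor and opens, by direct contact, the ryanodine receptor of the facing sarcoplasmic reticulum. Calcium then leaves the reticulum, where calsequestrin and the histidine-rich calcium-binding protein hold it, and starts contraction. Junctophilins tie the membranes of this junction, the triad, together. RGK proteins are small GTPases that bind the β subunits of voltage-gated calcium channels and inhibit the channel, and Rrad (Rad, Ras associated with diabetes) was first described as a transcript raised in the muscle of people with diabetes.

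Rrad was 4.39-fold higher in KO muscle, whereas most of the channel and triad genes listed with it read slightly lower. Of the 10 genes, Rrad alone passed the threshold of limma (adjusted p under 0.05) in the higher direction, where 0.871% of all genes did, and 0 passed it in the lower direction, where 0.702% did (at an unadjusted p under 0.05, 3 of the 10 were lower, and 8.66% of all genes). All 3 KO arrays lay above all 3 WT arrays for 1 of the 10 genes, Rrad, against 10.8% of all genes. They lay below all WT arrays for 4 of the 10, Ryr1, Hrc, Cacnb1 and Casq1, against 12.9% of all genes. Since the list was selected on this contrast, nothing is read from these counts.

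Rrad (probe set 1422562_at) read 6.47, 6.66 and 5.96 in WT 1 to WT 3, and 8.92, 8.20 and 8.36 in KO 1 to KO 3. The groups were far apart, with KO 1 the highest and WT 3 the lowest of the 6 arrays. The mean went from 6.36 ± 0.36 (SD, n = 3) to 8.50 ± 0.38 (SD, n = 3), a difference of 2.13 ± 0.22 (SE). The size of the difference depended little on any single mouse and lay between 1.92 (without KO 1) and 2.28 (without WT 2), but without WT 1 Rrad no longer passed the threshold, in a fit where only 17 probe sets passed it as higher.

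Gem, the other RGK protein of the list, did not follow Rrad. Its probe set (1426063_a_at) read 4.07, 3.75 and 3.82 in WT and 3.95, 4.05 and 4.53 in KO, with overlapping groups and a difference of 0.30 ± 0.16 (SE). The highest KO value was that of KO 3, and without this array the difference was 0.12. Gem lay low on these arrays, since 15.1% of the probe sets had a mean below it. Rem2, a further RGK GTPase, differed by -0.07 ± 0.10 (SE, n = 3 per group, adjusted p = 0.791 by limma). It lay lower still, with means of 3.93 in WT and 3.87 in KO and 13.0% of the probe sets below it. At such low values a change of Gem or Rem2 could be missed. Rem1 had no probe set of its own.

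**Figure D1:**
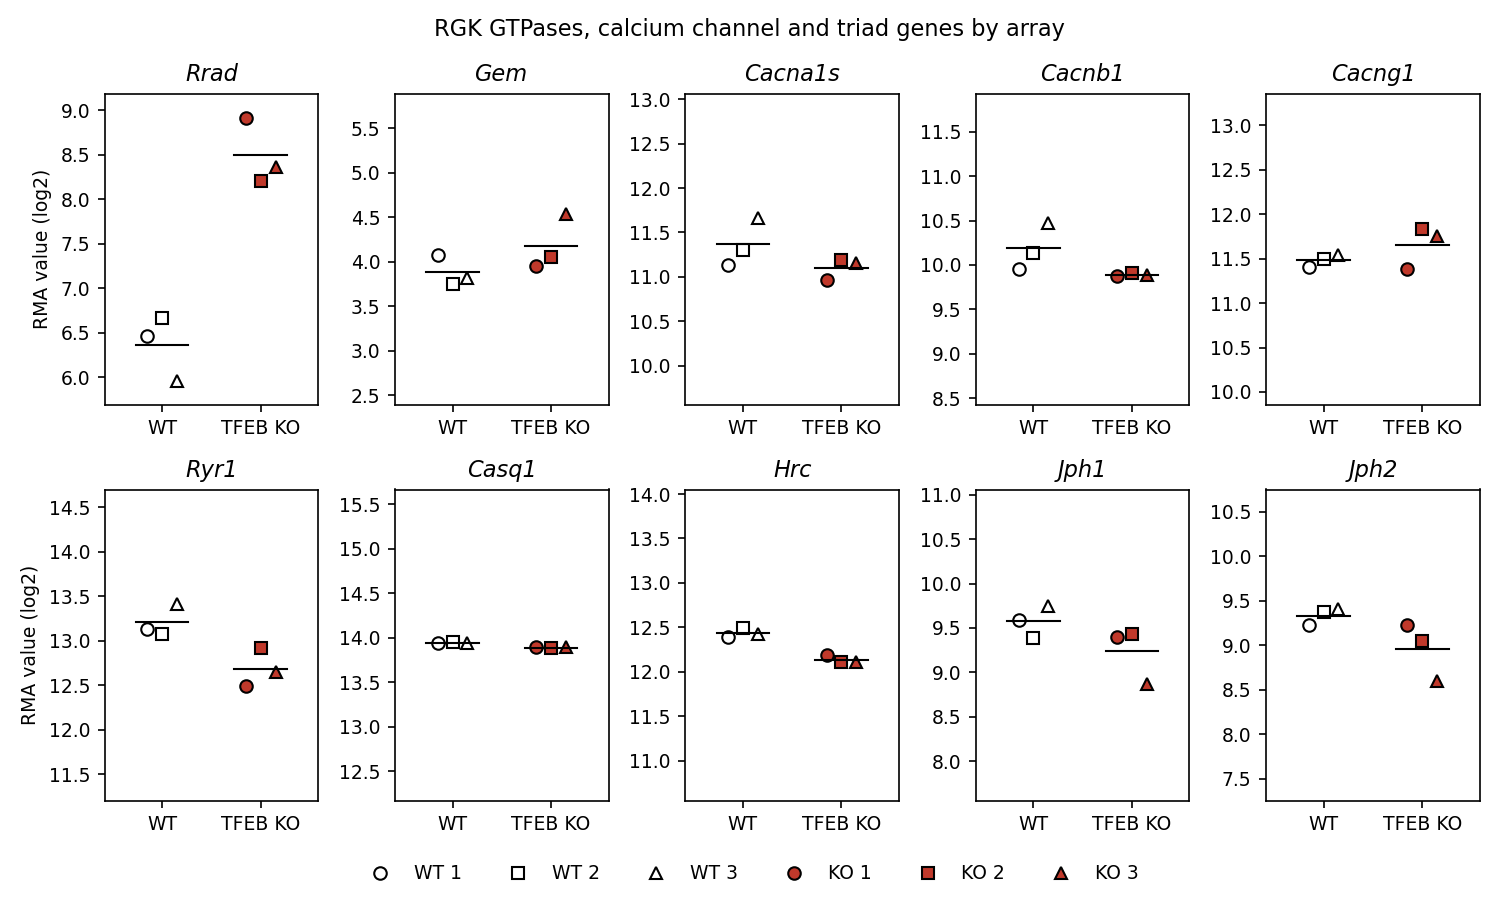
Log2 RMA values of the 10 genes in each array, with WT arrays as open symbols, TFEB KO arrays as red symbols, the array number given by the symbol's shape and the group mean as a line. Every panel spans the same height on the log2 scale around its own gene. The Rrad groups are apart by 2.13, whereas the other panels show differences between -0.52 and 0.30.

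The list held 3 subunits of the L-type channel of skeletal muscle. The α2δ1 subunit, encoded by Cacna2d1, was not on it, and its probe sets disagreed in sign. The brighter read 9.64, 9.86 and 9.87 in WT and 9.90, 9.90 and 11.13 in KO (0.52 ± 0.30, SE, n = 3 per group, adjusted p = 0.435 by limma). The dimmer differed by -0.38 ± 0.12 (SE, adjusted p = 0.167 by limma). Cacna1s encodes the pore-forming α1S subunit, which carries the voltage sensor. It read 11.14, 11.30 and 11.66 in WT and 10.97, 11.19 and 11.16 in KO (1420442_at), a difference of -0.26 ± 0.14 (SE). KO 2 and KO 3 lay above WT 1, so the groups overlapped, and without WT 3, the highest array, the difference was -0.11.

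Cacnb1 encodes the β1 subunit, which brings the channel to the triad and belongs to the subunit family that RGK proteins bind. Its brightest probe set (1426108_s_at) read 9.95, 10.14 and 10.48 in WT and 9.88, 9.91 and 9.88 in KO, a difference of -0.30 ± 0.13 (SE). The groups did not overlap, but the gap between WT 1 and KO 2 was narrow, the WT arrays were spread (SD 0.27, against 0.01 in KO), and without WT 3 the difference was -0.15. The dimmer probe sets differed from it in size. One of them (1451834_at) read 5.61, 5.69 and 5.66 in WT and 5.25, 5.05 and 4.99 in KO, a difference of -0.56 ± 0.10 (SE). It was the one probe set of the 12 past the threshold as lower, as were 0.844% of all probe sets, and Rrad's was the one past it as higher, as were 0.751%. The remaining one (1425777_at) read 5.86, 6.24 and 5.98 in WT and 5.98, 6.17 and 5.49 in KO, with overlapping groups and a difference of -0.15 ± 0.18 (SE). The Cacnb1 probe sets thus shared a sign but not a size, and which transcripts each detects is not known here.

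Cacng1, the γ1 subunit found mainly in skeletal muscle, was the one channel subunit of the list with a positive difference. It read 11.41, 11.49 and 11.54 in WT and 11.38, 11.83 and 11.76 in KO (1422813_at), a difference of 0.18 ± 0.13 (SE), between 0.09 (without KO 2) and 0.31 (without KO 1). KO 1 was the lowest of all 6 arrays, so the groups overlapped.

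The release channel and the storage proteins of the sarcoplasmic reticulum were lower in every KO array, by very different amounts. Ryr1, the ryanodine receptor of skeletal muscle, read 13.13, 13.07 and 13.41 in WT and 12.49, 12.92 and 12.65 in KO (1427306_at). The difference of -0.52 ± 0.14 (SE) was the most negative among the 10 brightest probe sets, and it lay between -0.63 (without KO 2) and -0.41 (without WT 3).

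Hrc, a calcium-binding protein of the reticulum lumen that also binds the junctional protein triadin, read 12.39, 12.49 and 12.42 in WT and 12.19, 12.11 and 12.11 in KO (1419109_at). Its arrays were tight, with an SD of 0.05 in each group, and the difference was -0.30 ± 0.09 (SE), between -0.33 and -0.27 on leaving out any array. Casq1, the calsequestrin of fast fibers and their main calcium store, read 13.94, 13.96 and 13.94 in WT and 13.90, 13.88 and 13.89 in KO (1422598_at). These groups did not overlap either, but the difference was only -0.06 ± 0.08 (SE). The Casq1 probe set was brighter than 99.8% of the probe sets, near the top value of the table, 14.93, where arrays are known to compress differences; the part of this in its small difference was not tested.

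Jph1 and Jph2, the junctophilins, were both lower in the mean and overlapped between the groups. Jph1, the main junctophilin of skeletal muscle, read 9.59, 9.39 and 9.74 in WT and 9.40, 9.43 and 8.87 in KO (1421520_at), a difference of -0.34 ± 0.17 (SE). Jph2, which is shared with the heart, read 9.22, 9.38 and 9.40 in WT and 9.23, 9.05 and 8.60 in KO (1421453_at), a difference of -0.37 ± 0.16 (SE). Both differences rested largely on KO 3, which was the lowest array for both genes, and without it they were -0.15 for Jph1 and -0.19 for Jph2.

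**Figure D2:**
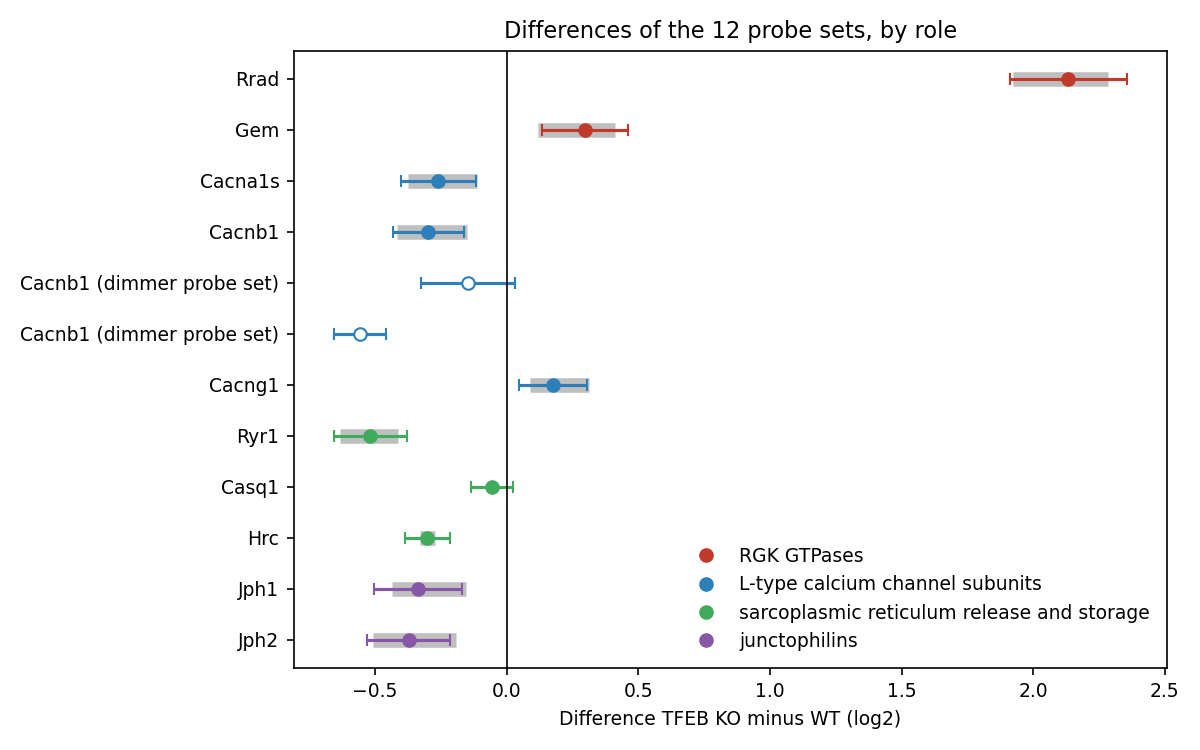
Difference TFEB KO minus WT on the log2 scale for all 12 probe sets, as points with the standard error as bars, colored by role, with open points for the dimmer Cacnb1 probe sets. Gray bands give the range of the brightest probe set's difference when each array is left out in turn. Rrad stands at 2.13 and the probe sets of the channel and triad genes lie between -0.56, a dimmer one of Cacnb1, and 0.18.

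Together, 7 of the 8 channel and triad genes had a negative difference, with a median of -0.30. Of all 12393 genes 6614 were below 0, with a median of -0.01. The median of the 8 lay between -0.35 (without WT 1) and -0.20 (without WT 3), and 7 of 8 were negative whichever array was left out. By array, the median deviation of these 8 genes from their WT mean was -0.07, -0.02 and 0.12 in WT 1 to WT 3, and -0.21, -0.23 and -0.32 in KO 1 to KO 3. WT 3 was the highest WT array for 6 of the 8 genes and WT 2 for the other two, and WT 3 was also the WT mouse with the lowest Rrad. The lowest KO array was KO 1 for 4 of the 8, KO 2 for 2 and KO 3 for 2.

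Promoter windows of RefSeq (GRCm38.p6, 250 bases before to 50 bases after a transcription start, read 5′ to 3′ along the gene) were at hand for 6 of the 10 genes, Cacna1s, Cacnb1, Ryr1, Casq1, Hrc and Jph2, as 8 windows. Each was searched on both strands for the E-box CAGCTG, a form of the element bound by the myogenic factors such as MyoD and myogenin, and for CACGTG, the E-box at the core of the element bound by TFEB. Both read the same on either strand, and both were chosen with the values of the genes known. CAGCTG was found in the windows of 4 of the 6 genes, Cacna1s, Hrc, Casq1 and Jph2, in 5 of the 8 windows, of which the 2 of Jph2 overlap and hold the same match. It was in 16.3% of the 32851 mouse windows. CACGTG was in 0 of the 8 windows and in 7.15% of all windows. A match is a stretch of letters and not a shown binding site, and a window without one says nothing of the factor.

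The matches stood at different distances from the start, beginning at -123 in Cacna1s, -22 in Hrc, -195 in Casq1 and -9 or -29 in Jph2, which has 2 annotated starts. The whole windows of Cacna1s (chr1:136052561-136052860, plus strand) and Hrc (chr7:45335019-45335318, plus strand) are shown, with 30 bases on either side of the match for Casq1 (chr1:172220055-172220120, minus strand) and Jph2 (chr2:163397967-163398032, minus strand). Capitals mark the E-box.
Cacna1s: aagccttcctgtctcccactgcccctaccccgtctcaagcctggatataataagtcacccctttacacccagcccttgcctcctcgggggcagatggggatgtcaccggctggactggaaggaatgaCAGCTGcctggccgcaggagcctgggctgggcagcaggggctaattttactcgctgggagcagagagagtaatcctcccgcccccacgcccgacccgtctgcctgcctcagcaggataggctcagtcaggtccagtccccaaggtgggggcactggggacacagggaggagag
Hrc: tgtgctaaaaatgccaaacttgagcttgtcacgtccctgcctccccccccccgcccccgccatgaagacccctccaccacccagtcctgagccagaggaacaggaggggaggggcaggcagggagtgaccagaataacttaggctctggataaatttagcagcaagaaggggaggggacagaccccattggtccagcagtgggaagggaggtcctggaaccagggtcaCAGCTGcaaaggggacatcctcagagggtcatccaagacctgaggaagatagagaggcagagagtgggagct
Casq1: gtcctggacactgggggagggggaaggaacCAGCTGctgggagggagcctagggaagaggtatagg
Jph2: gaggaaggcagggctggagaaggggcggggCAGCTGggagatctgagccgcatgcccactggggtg

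Beyond these 10 genes, 76 genes of excitation-contraction coupling and calcium handling were listed by role, and 57 of them had a probe set of their own. These lists, too, were chosen with earlier results of these data known, so their counts are given as a description. In KO muscle 2 of the 57 passed the test as higher, Rcan1 and Ryr3, and 2 as lower, Pln and Slc8a3, against 0.871% and 0.702% of all genes. The median difference of the 57 was -0.04, close to that of all genes, and 34 were below 0. The lists nearest in role to the 8 channel and triad genes were not lower in the median. It was 0.01 for other triad and T-tubule genes (4 of 7 above 0) and 0.12 for the release complex and calcium storage (6 of 10). For other channel subunits and STAC proteins it was 0.075 (5 of 8). The medians of the remaining lists lay between -0.30 (sarcolemmal action potential) and 0.002 (calcium buffers and calmodulin). At an unadjusted p under 0.05 by limma 5 of the 57 were higher, where 8.49% of all genes were, and 9 lower, where 8.66% were.

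Rcan1 encodes a regulator that binds and restrains calcineurin, the phosphatase activated by calcium and calmodulin. It read 10.15, 10.58 and 10.51 in WT and 11.50, 11.40 and 11.54 in KO, well apart in every array. The difference of 1.06 ± 0.13 (SE, n = 3 per group, adjusted p = 0.0146 by limma) was joined by 0.85 ± 0.14 (adjusted p = 0.0306) on its other probe set. Rcan1 passed with 5 of the 6 arrays left out in turn, and had an adjusted p of 0.0517 without KO 2. The calcineurin subunits themselves, Ppp3ca, Ppp3cb, Ppp3cc and Ppp3r1, did not pass, with differences between -0.19 and 0.25 on their brightest probe sets. The probe sets of Ppp3cb disagreed in sign, at -0.19 and 0.51 (adjusted p = 0.0556 by limma for the latter), as did those of Ppp3r1, at 0.25 and -0.26.

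One of 2 RefSeq windows of Rcan1 held TCACGTGA, the core with its flanking bases of the element known for TFEB, beginning at -192, as did 0.974% of all windows. It is shown because Rcan1 was the calcium-handling gene of the 57 with the largest difference (chr16:92466120-92466419, minus strand, GRCm38.p6), with the match in capitals. Which start the measured transcripts used is not known here. The same search found no CACGTG or TCACGTGA for Pln, Slc8a3 or Ryr3, the other genes past the test. Whether Ryr3 had a window was not recorded. Rcan1 read higher in KO muscle, and its match is a stretch of letters and not a shown binding site.
Rcan1: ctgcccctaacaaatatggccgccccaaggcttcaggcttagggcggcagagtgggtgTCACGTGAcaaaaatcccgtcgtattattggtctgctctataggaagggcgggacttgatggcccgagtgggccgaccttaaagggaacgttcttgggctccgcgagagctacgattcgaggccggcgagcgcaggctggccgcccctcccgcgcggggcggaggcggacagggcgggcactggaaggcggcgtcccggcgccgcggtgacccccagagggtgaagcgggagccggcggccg

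Ryr3, a ryanodine receptor of young and of some adult muscles, read 5.01, 5.07 and 5.20 in WT and 5.62, 5.75 and 6.05 in KO, a difference of 0.72 ± 0.13 (SE, n = 3 per group, adjusted p = 0.0414 by limma). This was opposite in sign to Ryr1. Its other probe set did not show it, with overlapping groups and a difference of -0.15 ± 0.14 (SE, adjusted p = 0.641). With the probe sets averaged the difference was 0.28 (adjusted p = 0.164), and the call held only with KO 1 left out and in none of the other leave-outs, where the adjusted p reached 0.161.

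The calcium reuptake and extrusion genes read mostly lower, with 7 of 8 below 0 and a median of -0.18. Pln, phospholamban, which restrains the calcium pump of slow fibers and heart, read 6.09, 6.12 and 5.98 in WT and 5.33, 5.55 and 5.33 in KO, a difference of -0.66 ± 0.10 (SE, n = 3 per group, adjusted p = 0.0270 by limma). Its dimmer probe sets also had every KO array below every WT array but did not pass (-0.31 and -0.32, adjusted p = 0.195 and 0.191). Slc8a3, a sodium-calcium exchanger, read 5.98, 6.03 and 6.06 in WT and 5.63, 5.41 and 5.41 in KO, a difference of -0.54 ± 0.10 (SE, n = 3 per group, adjusted p = 0.0427 by limma). Both kept their sign in every fit, but each passed in only 1 of the 6 leave-outs, that without KO 1. Elsewhere the adjusted p reached 0.120 for Pln and 0.143 for Slc8a3.

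The slow-fiber markers are given beside Pln, since slow fibers are its main source in limb muscle. Their median deviation was 0.31 and 0.55 in WT 1 and WT 2 but -0.85 in WT 3, beside -0.80, -0.56 and -0.63 in KO 1 to KO 3, so by the median WT 3 stood with the KO mice. For 3 of the 7 genes, Myh7, Myl2 and Myl3, every KO array lay below every WT array, against 12.9% of all genes. Myh7 read 12.81, 12.87 and 11.57 in WT and 10.81, 11.07 and 11.17 in KO (-1.40 ± 0.31, SE, n = 3 per group, adjusted p = 0.0688 by limma). Of the slow-fiber list 0 of 7 genes passed by limma (4 were lower at an unadjusted p under 0.05), and its summed level (log2 of the added linear values) ran from 14.35 to 15.48 in WT and from 14.06 to 14.43 in KO. In Atp2a2, the calcium pump of slow fibers, WT 3 stood with the KO mice as in the median, at 12.57, 12.68 and 11.66 in WT and 11.31, 11.78 and 11.67 in KO. It did not pass (-0.72 ± 0.26, SE, n = 3 per group, adjusted p = 0.206 by limma). On the brightest Pln probe set WT 3 read closer to the other WT arrays than to KO, whereas on a dimmer one, at 5.32, 5.32 and 5.02 in WT and 4.92, 4.93 and 4.90 in KO, it read closer to KO. The part of fiber type in the difference of Pln was not tested.

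**Figure D3:**
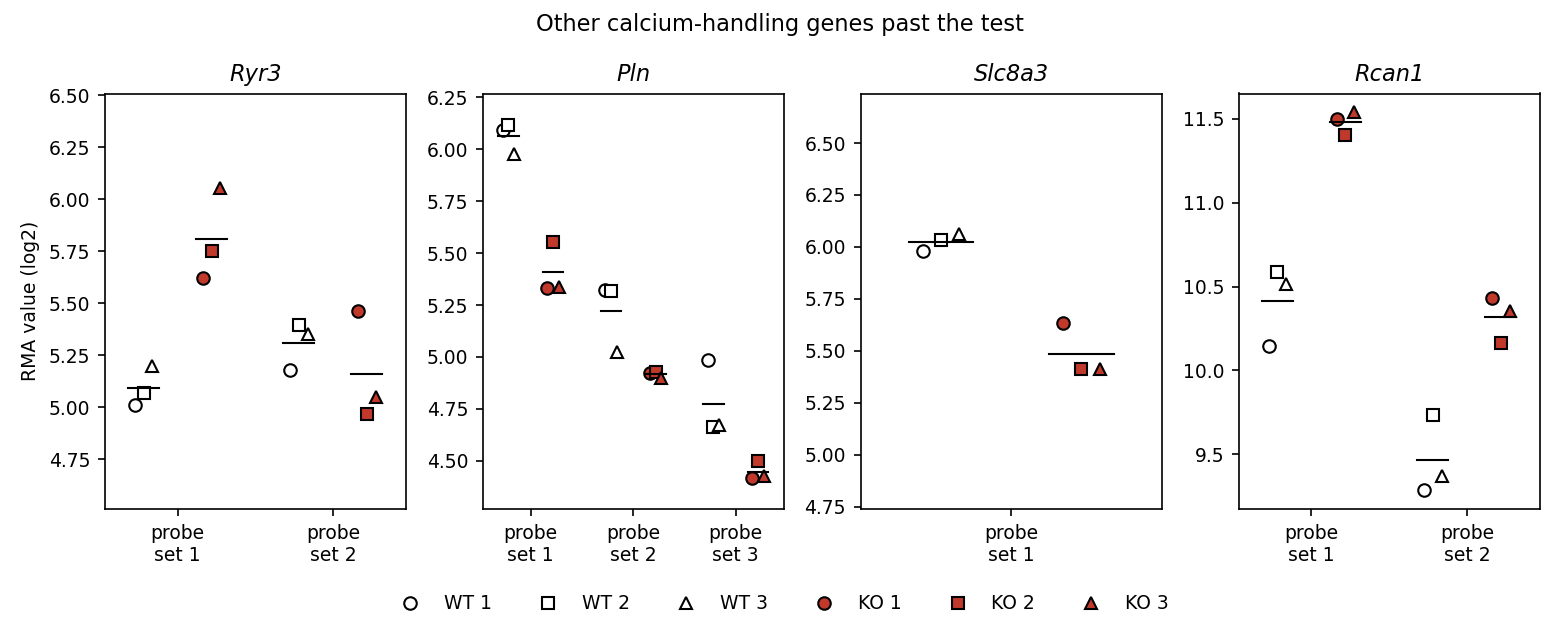
Log2 RMA values by array of the 4 calcium-handling genes past the test, for each of their probe sets from the brightest (probe set 1) on, with WT open, TFEB KO red and group means as lines; the height of the axis differs between panels. Both Rcan1 probe sets are apart, Ryr3 is apart on the brightest probe set alone, and the Pln groups are apart on each.

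In the other lists the gene with the smallest p stayed short of the threshold. For the channel subunits and STAC proteins it was Cacng6, a γ subunit of skeletal muscle, at -0.39 ± 0.10 (SE, n = 3 per group, adjusted p = 0.109 by limma), with 0.07 on its other probe set. For the sarcolemmal action potential it was Kcna7, a potassium channel, at -0.39 ± 0.10 (adjusted p = 0.104 by limma). Letm1, an ion exchanger of the mitochondrial inner membrane, differed by -0.42 ± 0.12 (adjusted p = 0.120 by limma). Its dimmer probe sets differed by -0.23, -0.0001 and -0.24. Stim1, the calcium sensor of store-operated entry, differed by -0.36 ± 0.18 (adjusted p = 0.349 by limma). The Stim1 difference was -0.15 without KO 1 and -0.05 on the other probe set. Dysf, dysferlin, differed by 0.23 ± 0.14 (adjusted p = 0.458 by limma), and by 0.07 without WT 1. Sri, sorcin, differed by 0.15 ± 0.16 (adjusted p = 0.691 by limma). It was at -0.04 without KO 1, and at -0.10 on its other probe set.

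Among 539 other genes whose highest and lowest arrays differed by at least 1 on the log2 scale, the 5 whose pattern over the 6 arrays was most like that of Rrad were Tubb6 (Pearson's r = 0.9976), Myog (0.9964), Ctss (0.9905), Lgals3 (0.9903) and Serpinb1a (0.9875). These are given as a description, since the 6 points share the group difference by which Rrad was known. Tubb6, a β tubulin, read 7.94, 8.05 and 7.76 in WT and 9.37, 8.89 and 8.99 in KO. Myog, the myogenic factor myogenin, read 6.39, 6.38 and 6.12 in WT and 7.38, 6.99 and 7.13 in KO. Like Rrad, both had WT 3 as the lowest array and KO 1 as the highest, but they were picked for their likeness to Rrad over these same arrays. Ctss, cathepsin S, and Lgals3, galectin-3, are on the list of macrophage markers, with differences of 2.07 ± 0.24 and 2.09 ± 0.21 (SE), about the size of that of Rrad.

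The marker lists of other cells are given beside Rrad. Of the macrophage markers 7 of 14 passed the test as higher and all 14 had every KO array above every WT array, with a median difference of 1.06. Their median deviation by array was 0.34, 0.07 and -0.43 in WT 1 to WT 3 and 1.52, 0.88 and 0.87 in KO 1 to KO 3. As with Rrad, WT 3 was the lowest and KO 1 the highest array. The order of the other arrays differed, since WT 2 was the highest WT array for Rrad and WT 1 for the macrophage markers. Their summed level ran from 11.16 to 12.002 in WT and from 12.72 to 13.39 in KO. Markers of embryonic and regenerating fibers, with Myog among them, passed for 2 of 8 genes (Myog and Myh3, embryonic myosin), with a median difference of 0.38. Their median deviation ran from -0.12 to 0.13 in WT and from 0.28 to 0.55 in KO, with KO 3 the highest array. Their summed level, of which Actc1 made up most, overlapped, from 12.73 to 13.33 in WT and from 12.62 to 13.43 in KO. The part of macrophages or of regenerating fibers in the difference of Rrad was not tested. In bulk tissue a change in the number of cells of a type and a change in RNA per cell cannot be told apart.

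Markers of vessel cells read lower in KO muscle. Endothelial markers passed as lower for 5 of 9 genes, with a median of -0.72 and summed levels from 11.00 to 11.14 in WT and from 10.40 to 10.55 in KO. Markers of smooth muscle and pericytes passed as lower for 2 of 9, with a median of -0.35 and a median deviation from -0.05 to 0.08 in WT and from -0.37 to -0.27 in KO. Their summed levels, to which Des, a marker of skeletal fibers as well, contributed much, overlapped, from 14.01 to 14.11 in WT and from 13.93 to 14.09 in KO. Of the markers of skeletal fibers 0 of 10 passed (0 at an unadjusted p under 0.05 by limma as well), and their median difference was 0.03. Every KO array lay above every WT array for 2 of them, against 10.8% of all genes, and below for 2, against 12.9%. Their summed level ran from 17.77 to 17.80 in WT and from 17.77 to 17.83 in KO. These markers, among them Acta1 and Ckm, were at the top of the scale in every array. Differences can be compressed there, so a change of these markers could be missed. The heart markers Myh6, Nppa, Nppb, Tnni3 and Myl7 had group means between 3.77 and 4.96, low on the scale. Myl4, which embryonic muscle also makes, had a mean of 8.44 in KO and differed by 0.44 (adjusted p = 0.0801 by limma). No marker was at 0, a value that RMA does not give. The part of the endothelial and mural cells in the differences of Ryr1, Hrc and the other triad genes was not tested.

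**Figure D4:**
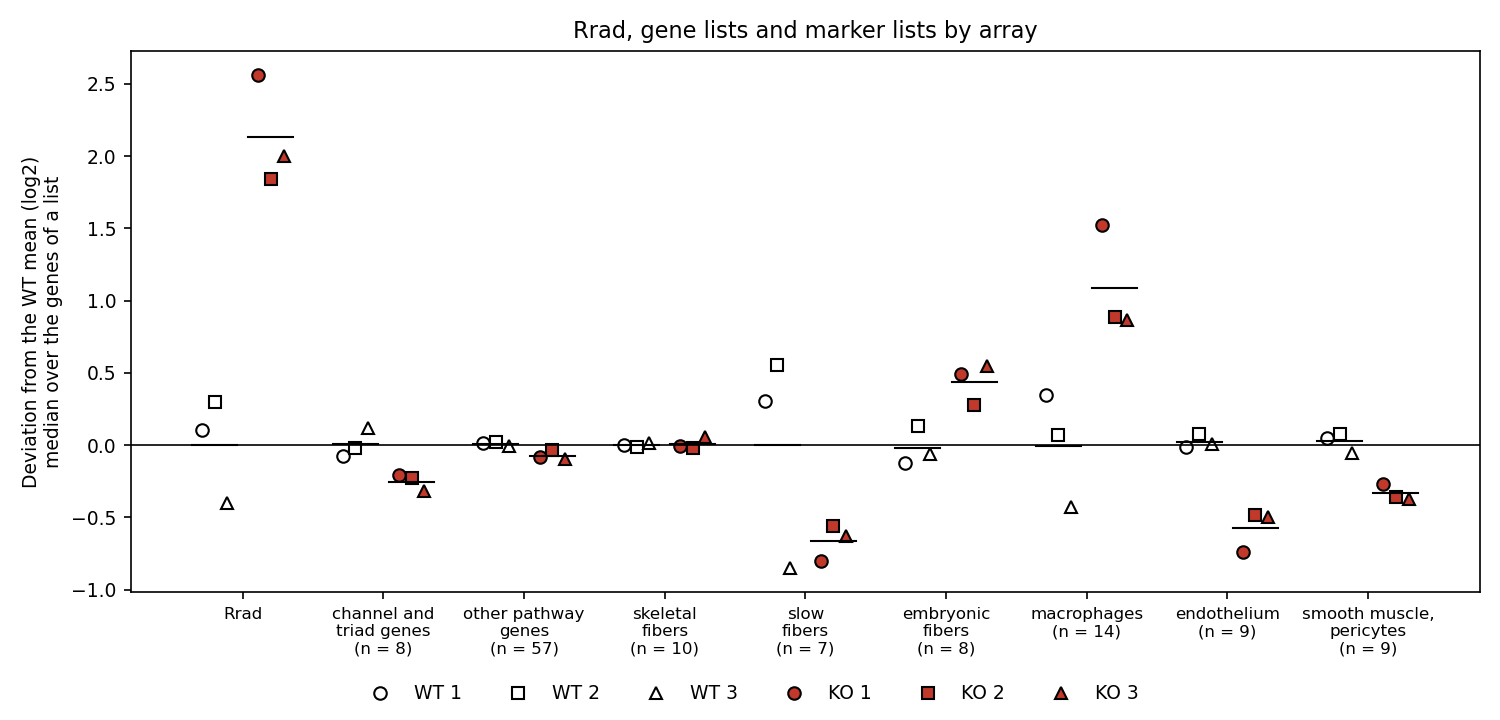
Deviation of each array from the WT mean on the log2 scale, for Rrad alone and as the median over the genes of each list, with WT arrays open, TFEB KO arrays red, and the mean of a group as a line. The 8 channel and triad genes lie at -0.21, -0.23 and -0.32 in KO, and the skeletal-fiber markers, at the top of the scale, lie near 0 in all 6 arrays. The macrophage markers share with Rrad WT 3 as the lowest and KO 1 as the highest array, but not the order of the other arrays.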

How the data were processed

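Gene expression was measured in muscle of 3 WT and 3 TFEB KO mice, 1 Affymetrix array per mouse. The deposited values are on the log2 scale, 1 per probe set and array, and were made by the authors from the scanned arrays with RMA, a background correction, quantile normalization and summary of probes; the submitters' processing notes name the R package affy, whose version and settings the sources used here do not give. Of 22690 probe sets, 64 controls were left out. Names came from the platform annotation, in which 20380 had 1 gene symbol, 691 several and 1555 none; 20351 were found in the RefSeq table and 0 symbols changed. A gene with several probe sets was taken by the brightest, the one with the highest mean over the 6 arrays.

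KO was set against WT with the lmFit and eBayes functions of limma 3.58.1 (two-sided, R 4.3.3) over 22626 probe sets, with Benjamini-Hochberg adjustment over all of them and a threshold of 0.05. Standard errors are the moderated ones of that fit. Lists were counted and given no set test. The fit was tested on simulated data. Tables, promoter windows and plots were made in Python 3.11.15 (matplotlib 3.10.9, pandas 2.3.3, NumPy 2.4.6). Arrays give no depth, and their number limits the precision; arrays correlated at 0.992 to 0.997 within groups and 0.989 to 0.993 between them.

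The genes named are the 10 of the list, with every probe set, the other calcium-handling genes past the test or with the smallest p of their list, the 5 genes most like Rrad (Pearson's correlation, brightest probe sets with a range of at least 1), and markers by list. Atp2a2, Cacna2d1, the calcineurin subunits, Myh3, Myh7, Myl2, Myl3 and the skeletal-fiber and heart markers are not covered by this rule. They were added with their values in view. The members and all lists were chosen with earlier results of these data known. As alternatives, values were quantile-normalized again or set to a common 75th percentile, the dimmest 0.25 of probe sets or each array in turn were left out, and a gene's probe sets were averaged. The fit was repeated with weights per array, with a robust, trended moderation and with a block for the replicate number, and calls were also made by the methods' t-test or with a 1.5-fold minimum.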

Additional observations from a re-analysis of the deposited data

How the results depend on the processing

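The Rrad difference kept its sign and moved by less than the spread between arrays in all 11 alternatives tried on it. It could not move with the replicate block, which leaves every difference as it was. Nor could it move when probe sets were averaged, since Rrad has no other probe set. Of 231 differences of the 10 genes and of 11 calcium-handling genes, such fixed ones included, 230 kept their sign. The exception was Sri, at -0.0422 to 0.2626 on leaving out each array (lowest without KO 1). Of the listed genes Casq1 alone moved by more than its very small spread, to -0.03 after a second quantile normalization and -0.06 with a common 75th percentile. Beside 170 probe sets higher and 191 lower, 296 were lower with array weights and 127 with a 1.5-fold minimum. Of the 22626 probe sets the methods' t-test called 1338 higher and 1944 lower unadjusted, 0 and 1 after adjustment. Unadjusted it called 1 of the 10 genes higher and 3 lower, and 5 of the 57 calcium-handling genes higher and 10 lower. The share of all genes was not counted for this test, so nothing is read from these counts. After adjustment it called 0 of the 10 genes and 0 calcium-handling genes in either direction. Of the calcium-handling genes 1 was lower with a common 75th percentile and 1 with the 1.5-fold minimum, and 1 was higher and 1 lower on the mean of a gene's probe sets. Leaving out each array gave 17 to 235 probe sets higher and 4 to 203 lower, 0 to 1 of the 10 genes higher, and 0 to 2 calcium-handling genes higher and 0 to 3 lower, with the lowest counts of probe sets without WT 1 and the highest without KO 1; the cause was not tested.

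The replicate numbers are not shown to pair the mice, and the correlations do not settle it. The deviations of same-numbered arrays correlated at 0.0876, 0.0477 and 0.265. WT 1 correlated best with KO 2 (0.172), whereas WT 2 and WT 3 each correlated best with the KO array of the same number. With the replicate block 173 probe sets were higher and 124 lower, Rrad kept its call at 2.13, and Slc8a3 had an adjusted p of 0.0666.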
